A study of Mus musculus with 3 samples.

Results

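The 10 genes described here, Sox10, Sox2, Sox5, Sox6, Egr2, Pou3f1, Zeb2, Yap1, Wwtr1 and Tead1, encode transcription factors and co-activators of the glial lineage of the peripheral nervous system. They were chosen by symbol among the 32227 genes of the count tables, and all 10 were present. Their identifiers were ENSMUSG00000033006 (Sox10), ENSMUSG00000074637 (Sox2), ENSMUSG00000041540 (Sox5), ENSMUSG00000051910 (Sox6), ENSMUSG00000037868 (Egr2), ENSMUSG00000090125 (Pou3f1), ENSMUSG00000026872 (Zeb2), ENSMUSG00000053110 (Yap1), ENSMUSG00000027803 (Wwtr1) and ENSMUSG00000055320 (Tead1). Single-nucleus RNA-seq (PIP-seq, in which nuclei are captured in droplets with barcoded beads) had been run on lumbar dorsal root ganglia (L3-L5) of C57BL/6 mice labelled male, with 1 library from adult mice of 3 months and 2 libraries from aged mice of 21 months. No genetic change or treatment was given for either age, and how many animals went into a library was not stated. The ages are those of the sample labels, and the design text of the series gives the aged group as younger. The question these libraries address is how cells of the ganglion, its satellite glia above all, differ between adult and aged mice, and here it was asked for these 10 genes.

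In the peripheral nervous system the neural crest gives rise to satellite glial cells (SGCs), which wrap the cell bodies of sensory neurons, and to Schwann cells, which either ensheath small axons without myelin (NMSCs) or myelinate large ones (MSCs). SOX10 is required throughout this lineage, and it acts with POU3F1 (OCT6) to switch on EGR2 (KROX20), the factor that drives and maintains myelin genes, whereas SOX2 is known as a factor of immature glia that opposes EGR2. SOX5 and SOX6 are SOXD factors that lack an activation domain of their own, ZEB2 is a repressor needed for Schwann cells to myelinate, and YAP1 and WWTR1 (TAZ) are the co-activators held in check by the Hippo kinases, which act on DNA through TEAD proteins such as TEAD1.

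The promoters of Yap1 and Wwtr1, the pair whose levels ran most closely together across nuclear classes, are shown because YAP1 and WWTR1 act through TEAD proteins and both windows hold the letters of a TEAD motif. The windows are the 250 bases before the first RefSeq start listed for each gene, on the minus strand of GRCm38.p6 (Yap1, chr9:8004597-8004846; Wwtr1, chr3:57575911-57576160), printed 5′ to 3′ on the gene's own strand, with GGAATG, the reverse complement of the TEAD motif CATTCC, in capitals.
Yap1: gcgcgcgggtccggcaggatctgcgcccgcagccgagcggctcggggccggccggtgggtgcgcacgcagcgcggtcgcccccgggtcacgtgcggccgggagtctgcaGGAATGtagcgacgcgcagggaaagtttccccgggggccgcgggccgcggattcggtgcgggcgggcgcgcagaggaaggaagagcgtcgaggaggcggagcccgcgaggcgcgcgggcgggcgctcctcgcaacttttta
Wwtr1: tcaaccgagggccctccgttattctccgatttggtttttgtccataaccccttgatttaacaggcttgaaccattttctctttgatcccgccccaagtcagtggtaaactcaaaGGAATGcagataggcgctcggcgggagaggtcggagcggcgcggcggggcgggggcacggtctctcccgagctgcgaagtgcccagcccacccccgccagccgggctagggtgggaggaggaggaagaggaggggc
The letters CATTCC, searched on both strands, were in 12.6% of all 32851 windows and in 8 of the 20 windows of the 7 members with a RefSeq entry (several starts per gene, so windows overlap), which belonged to Zeb2, Wwtr1, Sox5, Sox6, Yap1 and Egr2. A SOX motif (ACAAAG) was in 16.5% of all windows and in 7 of the 20 member windows, of Zeb2, Sox2 and Sox6, and an EGR motif (GCGTGGGCG) was in 0.536% of all windows and in 0 of the 20. These matches describe the letters of the windows and were not used in any test. Sox10, Pou3f1 and Tead1 had no matching entry.

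Barcodes with more than 1000 genes were taken as nuclei, 11518 for the adult mice, 5130 for aged library 1 and 2611 for aged library 2, from 167664164, 95647106 and 69045987 UMIs (unique molecular identifiers, which count RNA molecules). Nuclei were clustered on marker genes that included none of the 10 members, so that a member's level in a class had no part in building that class. Of the 19259 nuclei, 3471, 501 and 251 were called SGC-like, 149, 177 and 88 NMSC-like and 495, 438 and 147 MSC-like in the adult, aged 1 and aged 2 libraries. Levels are given as CPM, UMI counts of a class summed within a library and scaled to the same total in every class, always in the order adult, aged 1, aged 2, and a mean ± SD is over these 3 libraries.

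Several properties of the libraries bear on every value below. Xist, the RNA of the inactive X chromosome, stood at 1414, 844 and 929 CPM in the kept nuclei, which goes against a label of male mice only. Of the Y-linked genes, Ddx3y had 1860, 738 and 296 UMIs. Uty had 246, 56 and 27, Kdm5d 91, 33 and 23 and Eif2s3y 9, 3 and 1 UMIs. The study's methods give female aged mice and adult mice of both sexes. The aged glial nuclei were deeper than the adult ones (SGC-like medians of 3047, 6721 and 6478 UMIs), and Malat1, an abundant nuclear RNA, took 8.81%, 2.36% and 2.54% of SGC-like UMIs and was likewise lower in the aged libraries in the other 8 classes. Depth was addressed by thinning every nucleus to 1000 UMIs, and each member's call that this ended is named with its result. Calls of other genes are given without a thinned result. Over all genes, thinning gave 307 age calls in SGC-like, 154 in NMSC-like and 444 in MSC-like nuclei, beside 1329, 569 and 1434. The part of sex and of Malat1 in the results below was not tested, and since adult mice gave 1 library, an effect of age cannot be told apart from whatever else set that library off from the aged pair. Libraries shared 1, 1 and 0 barcodes pairwise. Sums per class also cannot tell less RNA per nucleus from fewer nuclei with the RNA.

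The markers are described here by class. They had also built and named the classes, so their levels are no independent check of the labels. All 8 SGC markers had UMIs in SGC-like nuclei of every library, with a summed level of 2804, 3175 and 2787 CPM, and the MSC markers summed to 44254, 20288 and 18626 CPM in MSC-like nuclei against 855, 773 and 651 CPM in SGC-like and 3087, 2824 and 2110 CPM in NMSC-like nuclei. The NMSC markers summed to 6368, 6796 and 5965 CPM in NMSC-like nuclei, where Slitrk6 and Gfra3 were at 0 in the adult library, and they were only moderately lower in SGC-like nuclei (4008, 4430 and 4788 CPM) and far lower in MSC-like nuclei (549, 502 and 462 CPM). Fibroblast markers in NMSC-like nuclei were lower in the adult library (802 CPM) than in the aged ones (1809 and 1735 CPM), and their part in the NMSC-like values was not tested. Neuron markers summed to 2671, 2854 and 2098 CPM in SGC-like, 3856, 3125 and 2709 CPM in NMSC-like and 3005, 1871 and 1390 CPM in MSC-like nuclei. The SGC-like class was made of several clusters that were not equally filled at the 2 ages: the cluster holding most adult SGC-like nuclei held 27.3% of them and 15.2% and 14.3% of the aged ones, whereas the cluster that led in both aged libraries held 33.5% and 26.3% of those and 9.45% of the adult ones. Clustering on variable genes in place of markers parted the ages further, with 3409, 76 and 28 nuclei in one SGC-like cluster and 83, 397 and 205 in another, so that adult and aged SGC-like nuclei lay mostly in different clusters there.

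Set against the mean of the 6 other classes in the fit (neuron, fibroblast, endothelial, myeloid, lymphocyte, and erythroid or cycling), 9 of the 10 members were higher in the 3 glial classes, where 47.9% of the 14183 genes tested passed in either direction. Sox10 differed most, by 3.87 on the log2 scale (SE 0.13, adjusted p = 4.75e-17, edgeR quasi-likelihood test on class sums with library as a block). Pou3f1 (2.89), Sox2 (2.59), Tead1 (2.37), Sox6 (1.87), Wwtr1 (1.86), Yap1 (1.73), Egr2 (1.67) and Zeb2 (1.39) were also higher, although Egr2 was not called without the adult library or after thinning and was 2.27 and 2.50 without aged library 1 and 2. Pou3f1 was 3.61 without aged library 2. The contrast averages the glial classes, and not each of them was higher. By mean CPM, Egr2 in SGC-like nuclei (0.535) was above neuron-like nuclei (0.495) alone among the 6 other classes. Pou3f1 in SGC-like nuclei (5.06) was below erythroid or cycling (10.7), lymphocyte-like (6.48) and myeloid-like nuclei (5.11). Sox2 and Sox6 in MSC-like nuclei were also below some of the other classes. The other classes are averaged too, and for some members 1 or more of them stood above every glial class. These were endothelial-like (285) and fibroblast-like nuclei (233) for Wwtr1, against at most 208 in glia. Others were myeloid-like nuclei for Zeb2 (3381 against 3060) and erythroid or cycling nuclei for Sox6 (1633 against 1101). For Yap1 fibroblast-like nuclei were about level with SGC-like nuclei (123 and 122). Sox5 was the member that did not pass (0.46 ± 0.19, adjusted p = 0.0558). Its mean level was 334 ± 41.2 CPM in SGC-like nuclei, 324 ± 109 CPM in fibroblast-like and 476 ± 264 CPM in lymphocyte-like nuclei, ranges that overlapped.

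**Figure D1:**
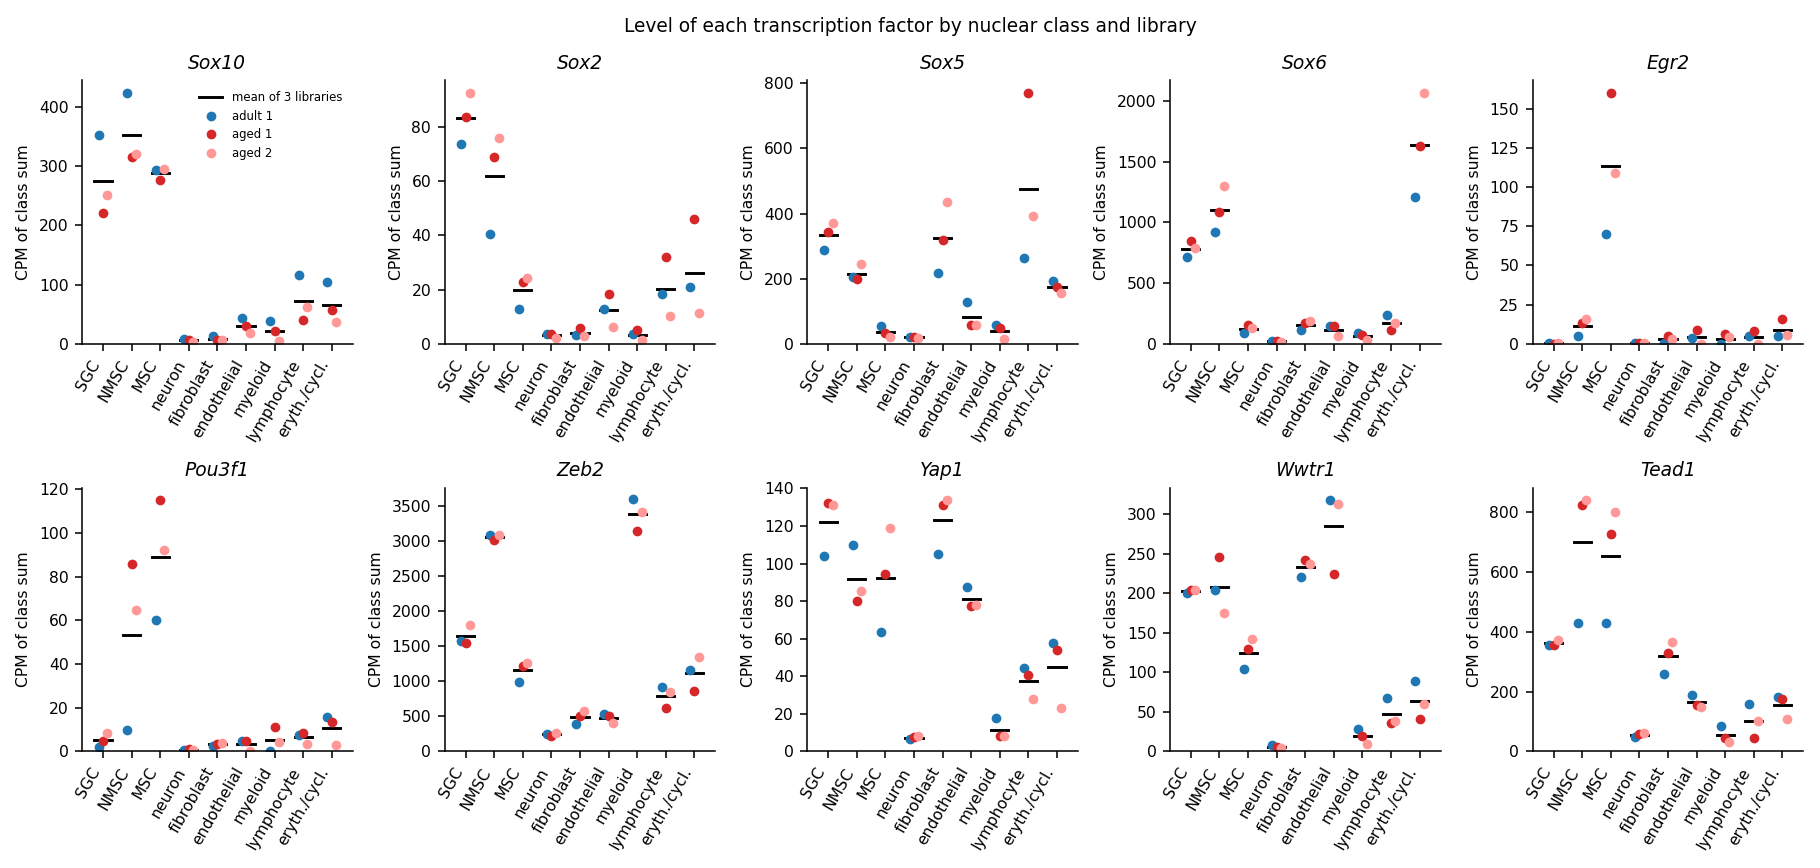
CPM (linear axis) of each of the 10 genes in the class sums of 9 nuclear classes, with 1 point per library and a bar at the mean of the 3 libraries. Sox10 reached 221 to 424 CPM in the 3 glial classes and at most 116 CPM elsewhere, Egr2 stood highest in MSC-like nuclei (70.3 to 160 CPM), and Zeb2 stood higher in myeloid-like than in NMSC-like nuclei (3140 to 3590 against 3015 to 3087 CPM).

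Sox10, the factor that marks the lineage, was measured at 353, 221 and 251 CPM in SGC-like, 424, 315 and 320 CPM in NMSC-like and 293, 277 and 296 CPM in MSC-like nuclei. NMSC-like nuclei thus held the highest level and did not overlap MSC-like nuclei (353 ± 61.4 against 289 ± 10.2 CPM, n = 3), while the SGC-like and MSC-like ranges overlapped. None of the 3 contrasts between glial classes passed the test (SGC-like against MSC-like 0.05 ± 0.22, adjusted p = 0.916; against NMSC-like -0.14 ± 0.23, adjusted p = 0.767; NMSC-like against MSC-like 0.19 ± 0.23, adjusted p = 0.694). Neuron-like nuclei, which should lack Sox10, held 8.04, 5.99 and 3.68 CPM. Free RNA, read from barcodes with 10 to 100 UMIs, held 59.4, 34.3 and 24.3 CPM of Sox10. Lymphocyte-like nuclei (116, 40.4 and 62.5 CPM) and erythroid or cycling nuclei (105, 56.8 and 37.3 CPM) stood above it in every library, and free RNA made up at most 26.7%, 16% and 13.3% of lymphocyte-like and 31.5%, 24.8% and 9.96% of erythroid or cycling UMIs. Lymphocyte-like nuclei also carried general glial markers (1751, 994 and 985 CPM, free RNA 1708, 1529 and 1092) and, in the adult library, MSC markers at 4864 CPM (free RNA 3242), and their part in these Sox10 values was not tested. The glial classes held 73.6%, 60.8% and 64.4% of all Sox10 UMIs in kept nuclei. Sox10 lies on chromosome 15 (79154908 to 79165240, minus strand, GRCm38) with no annotated gene overlapping it.

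Sox2, Sox5 and Sox6 were all higher in SGC-like and NMSC-like than in MSC-like nuclei. Sox2 was at 73.8, 83.8 and 92.7 CPM in SGC-like nuclei, 40.7, 69.1 and 76 CPM in NMSC-like and 12.7, 22.9 and 24.5 CPM in MSC-like nuclei. SGC-like and NMSC-like levels of Sox2 overlapped, with a contrast that did not pass (0.68 ± 0.27, adjusted p = 0.0988), and neither class overlapped MSC-like nuclei. The SGC-like level was 4.94-fold the MSC-like level (log2 2.31 ± 0.28, adjusted p = 4.12e-07, edgeR) and the NMSC-like level 3.09-fold (1.63 ± 0.32, adjusted p = 0.000582). After thinning the second call was lost (adjusted p = 0.0775).

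Sox5 stood at 289, 342 and 370 CPM in SGC-like, 204, 198 and 244 CPM in NMSC-like and 53.5, 32.7 and 20.1 CPM in MSC-like nuclei, and these 3 ranges did not overlap. It was 10.2-fold higher in SGC-like than in MSC-like nuclei (3.35 ± 0.40, adjusted p = 3.3e-07) and 5.59-fold higher in NMSC-like than in MSC-like nuclei (2.48 ± 0.41, adjusted p = 6.98e-05). The SGC-like and NMSC-like classes did not differ past the threshold (0.87 ± 0.36, adjusted p = 0.119). The highest Sox5 level of any class was in mural-like nuclei, 1456 ± 585 CPM, a class with 101, 23 and 4 nuclei that was left out of the fit.

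Sox6 stood at 712, 843 and 786 CPM in SGC-like, 917, 1086 and 1299 CPM in NMSC-like and 87, 152 and 131 CPM in MSC-like nuclei. Here the order of the upper pair was turned compared with Sox2 and Sox5, with every NMSC-like value above every SGC-like one, although the contrast did not pass (-0.26 ± 0.30, adjusted p = 0.653). Both were well above MSC-like nuclei, by 7.11-fold in SGC-like (2.83 ± 0.33, adjusted p = 2.06e-07) and 8.54-fold in NMSC-like nuclei (3.09 ± 0.33, adjusted p = 1.98e-07). Outside glia, erythroid or cycling nuclei held 1633 ± 429 CPM of Sox6, a gene also known for its part in red cell maturation, and this range overlapped the NMSC-like one.

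SOX relatives outside the member list were also followed. Of 7 such genes 5 were tested, and against the other classes glia had 2 higher, Sox13 (1.81) and Sox8 (1.99), and 1 lower, Sox11 (-0.89), in a contrast that 47.9% of all genes passed. The list's median was 0.37 beside -0.04 over all genes. Between SGC-like and MSC-like nuclei Sox8, a SOXE factor like Sox10, was lower in SGC-like nuclei (-1.60 ± 0.47, adjusted p = 0.0105; 6.15, 3.14 and 8.83 CPM against 22.1, 17.4 and 18.7 CPM), and between NMSC-like and MSC-like nuclei Sox4 was higher in NMSC-like nuclei (1.37 ± 0.37, adjusted p = 0.0102), while the list's medians were -0.24 and -0.14. No relative passed between SGC-like and NMSC-like nuclei.

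Egr2 and Pou3f1, the promyelinating pair, ran the other way. Egr2 was at 70.3, 160 and 109 CPM in MSC-like nuclei (105, 294 and 76 UMIs), 4.79, 13.3 and 16.1 CPM in NMSC-like nuclei (2, 11 and 7 UMIs) and 0.791, 0.262 and 0.552 CPM in SGC-like nuclei (9, 1 and 1 UMIs). The 3 classes were fully separated, and the SGC-like range overlapped that of neuron-like nuclei (0.535 ± 0.265 and 0.495 ± 0.314 CPM). The fold against SGC-like nuclei was fitted as 134-fold for MSC-like (-7.06 ± 0.44, adjusted p = 8.11e-12) and 12.4-fold for NMSC-like nuclei (-3.63 ± 0.65, adjusted p = 0.000349), sizes that rest on few SGC-like UMIs. Without the adult library these log2 values were -8.49 and -5.14, and the second was not called without aged library 1 (adjusted p = 0.0531). The MSC markers were likewise higher in NMSC-like than in SGC-like nuclei in every library, as given above, and their part in the second difference was not tested. MSC-like nuclei held 10.8-fold more Egr2 than NMSC-like nuclei (adjusted p = 8.97e-07).

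Pou3f1 was at 60.2, 115 and 92.1 CPM in MSC-like (90, 211 and 64 UMIs), 9.58, 86 and 64.5 CPM in NMSC-like (4, 71 and 28 UMIs) and 2.2, 4.72 and 8.28 CPM in SGC-like nuclei (25, 18 and 15 UMIs). The MSC-like and NMSC-like ranges overlapped and the contrast did not pass (-0.83 ± 0.38, adjusted p = 0.155), whereas SGC-like nuclei lay below both, by 18.5-fold against MSC-like (-4.21 ± 0.41, adjusted p = 1.12e-08) and 10.4-fold against NMSC-like nuclei (-3.38 ± 0.45, adjusted p = 1.21e-05). The low NMSC-like value was the adult one. Gm2164, annotated on the opposite strand and overlapping the 5′ end of Pou3f1 (chromosome 4, 124656807 to 124660655), was at a mean of 16.6 CPM in SGC-like nuclei, with 29.4 in the MSC-like and 76.2 in the NMSC-like class, and since it was not stated whether counting used strand, Pou3f1 values are uncertain to that extent.

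The partners of this pair divided between the classes. Of 20 regulators and partners of the Schwann lineage, 19 were tested and 12 were higher in glia than in the other classes, with 0 lower and a median of 0.99 beside -0.04 over all genes, of which 47.9% passed. Pou3f2, the relative of Pou3f1 that shares its targets, was 3.07 higher on the log2 scale in glia. Between SGC-like and MSC-like nuclei 9 were higher and 2, Nab2 and Mitf, lower (median 1.07, all genes 0.02), where 29.1% of all genes passed. The Notch receptor Notch1 (3.14 ± 0.23) and the Notch-responsive repressors Hey2 (5.27 ± 0.46) and Hes1 (1.77 ± 0.28) were among the higher ones, with Zeb1 (1.74), Tfap2a (2.68) and Egr3 (3.20). Notch1 was at 317, 296 and 329 CPM in SGC-like and 35.5, 36.5 and 50.4 CPM in MSC-like nuclei. NMSC-like against MSC-like nuclei gave 8 higher and 1 lower, the lower one being Mitf (-2.25 ± 0.32, adjusted p = 1.09e-05), with a median of 1.07 beside -0.06 and 16.2% of all genes called. SGC-like against NMSC-like nuclei gave 7 higher and 2 lower, the latter being Pax3 (-3.54) and Jun (-1.30), with a median of 0.51 beside 0.10 and 14.0% of all genes called.

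Of 4 genes known as targets of SOX10 or EGR2 and not used as markers, all 4 were higher in glia than in the other classes (median 3.08 beside -0.04), where 47.9% of all genes passed. Gjb1 and Cnp, which encode connexin 32 and a myelin enzyme, were lower in SGC-like than in MSC-like nuclei (-5.77 ± 0.42 and -3.28 ± 0.21), as was Ndrg1 (-1.47 ± 0.29), which makes 3 of 4 where 29.1% of all genes passed. Gjb1 had 9, 8 and 1 UMIs in SGC-like nuclei against 85, 155 and 48 in MSC-like nuclei. NMSC-like nuclei had 3 of the 4, all but Gjc3, lower than MSC-like nuclei (median -1.49 beside -0.06, 16.2% of all genes called), and SGC-like against NMSC-like nuclei gave 1 lower (Cnp, -2.07, 14.0% of all genes called).

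Zeb2 was found in every class. It was at 1572, 1543 and 1800 CPM in SGC-like, 3087, 3015 and 3078 CPM in NMSC-like and 991, 1215 and 1263 CPM in MSC-like nuclei, so that NMSC-like nuclei were above SGC-like nuclei and these above MSC-like nuclei in every library. All 3 contrasts passed: NMSC-like nuclei exceeded MSC-like nuclei by 2.53-fold (1.34 ± 0.19, adjusted p = 8.98e-06), SGC-like nuclei were lower than NMSC-like (-0.67 ± 0.19, adjusted p = 0.0148) and higher than MSC-like nuclei (0.66 ± 0.19, adjusted p = 0.00778). The last of these was lost with clustering on variable genes (0.17), with nuclei rich in neuron markers included (0.20), with a minimum of 2000 genes (0.57) and without either aged library (0.70 and 0.63). Leaving out either aged library also ended the call against NMSC-like nuclei, which was -1.33 with clustering on variable genes. Myeloid-like nuclei held more Zeb2 than any glial class (3381 ± 227 CPM). The myeloid markers in the glial classes summed to up to 599 CPM, and their part in the glial Zeb2 values was not tested.

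Yap1 and Wwtr1 were less tied to one glial class. Yap1 stood at 104, 132 and 131 CPM in SGC-like, 110, 80 and 85.2 CPM in NMSC-like and 63.6, 94.2 and 119 CPM in MSC-like nuclei, and fibroblast-like nuclei were as high (123 ± 16 CPM). The ranges of the 3 glial classes overlapped. SGC-like nuclei passed against MSC-like (0.59 ± 0.20, adjusted p = 0.0279) and NMSC-like nuclei (0.65 ± 0.22, adjusted p = 0.0466), but these calls held in 3 and 2 of 13 alternatives, and the values fell to 0.17 and 0.18 with nuclei rich in neuron markers included. NMSC-like and MSC-like nuclei did not differ past the threshold (-0.06 ± 0.23, adjusted p = 0.928). Neither was called without aged library 1 or after thinning.

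Wwtr1 stood at 200, 204 and 204 CPM in SGC-like, 204, 246 and 175 CPM in NMSC-like and 104, 129 and 142 CPM in MSC-like nuclei. MSC-like nuclei lay below every value of the other glial classes. The contrast of SGC-like with MSC-like nuclei passed (0.86 ± 0.23, adjusted p = 0.00525), although not without aged library 1, with clustering on variable genes (0.35) or with the glial nuclei rich in neuron markers counted as SGC-like (0.35), and that of NMSC-like with MSC-like nuclei did not (0.69 ± 0.24, adjusted p = 0.0531), nor did that of SGC-like with NMSC-like nuclei (0.17 ± 0.23, adjusted p = 0.709). Endothelial-like nuclei held the most Wwtr1 (285 ± 53.2 CPM), overlapping fibroblast-like nuclei (233 ± 11.1 CPM).

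Tead1, their DNA-binding partner, was at 356, 357 and 373 CPM in SGC-like, 429, 825 and 841 CPM in NMSC-like and 430, 725 and 800 CPM in MSC-like nuclei. Every Schwann-like value was above every SGC-like value. Over all 3 libraries the contrasts of SGC-like with MSC-like (-0.68 ± 0.31, adjusted p = 0.107) and NMSC-like nuclei (-0.71 ± 0.31, adjusted p = 0.139) and that between the Schwann-like classes (0.04 ± 0.31, adjusted p = 0.977) did not pass, and the spread between the adult and the aged values in the Schwann-like classes was large. A noncoding RNA annotated as one of a bidirectional promoter, 2310014F06Rik, lies on the opposite strand (chromosome 7, 112612560 to 112680081). Only its 5′ end overlaps that of Tead1 (112679318 to 112906807). The mean level of 2310014F06Rik was 577 CPM in MSC-like against 120 in NMSC-like and 74.9 in SGC-like nuclei. Part of the Tead1 counts may belong to it if counting ignored strand.

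Other Hippo genes were measured beside these. Of 20 Hippo pathway genes and YAP targets, 19 were tested, and 9 were higher and 2 lower in glia than in the other classes (median 0.22 beside -0.04), a share not far from the 47.9% of all genes that passed. Vgll3 (3.10), Tead3 (2.76) and Amotl2 (1.97) were among the higher ones, and Stk4 and Mob1b were the lower ones. SGC-like nuclei had 2 higher (Tead2 and Amot) and 8 lower than MSC-like nuclei (median -0.47 beside 0.02), where 29.1% of all genes passed. The TEAD genes did not move together. Tead4 (-4.73 ± 0.41; 18, 7 and 1 UMIs against 58, 103 and 27) and Tead3 (-1.13 ± 0.28) were lower in SGC-like nuclei, and Tead2 was higher (2.05 ± 0.47; 16.9, 16 and 18.2 CPM against 6.02, 4.36 and 2.88 CPM). Vgll4, a TEAD-binding antagonist of YAP, was lower in SGC-like (-1.10 ± 0.17) and in NMSC-like nuclei (-1.10 ± 0.18) than in MSC-like nuclei. NMSC-like nuclei had 0 higher and 4 lower (Tead4, Vgll4, Stk3 and Tead3) than MSC-like nuclei (median -0.45 beside -0.06), near the 16.2% of all genes that passed. Between SGC-like and NMSC-like nuclei Amot was higher (1.40) and Vgll3 lower (-0.88), with a list median of 0.00 beside 0.10, and this count too was near the background of 14.0%.

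Counted over the members, 8 of 10 differed between SGC-like and MSC-like nuclei (6 higher, 2 lower), where 29.1% of all genes passed. Between NMSC-like and MSC-like nuclei 5 of 10 passed (4 higher, 1 lower), where 16.2% of all genes did, and between SGC-like and NMSC-like nuclei 4 of 10 (1 higher, 3 lower), where 14.0% did. Without aged library 1 the first of these counts fell to 5 and the third to 1, and without aged library 2 the third was 2. The members' median differences were 0.62, 0.44 and -0.20, beside 0.02, -0.06 and 0.10 over all genes. Scaling to total UMIs in place of TMM moved the all-gene median from 0.02 to -0.14 for the first contrast and from 0.10 to -0.13 for the third.

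**Figure D2:**
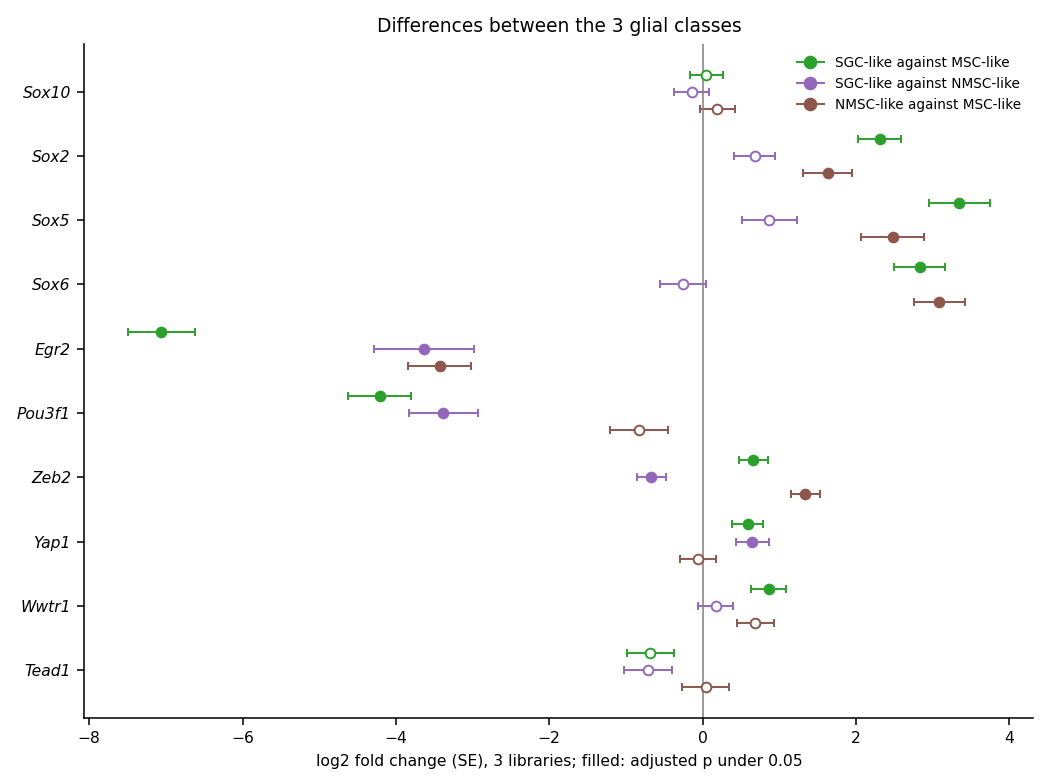
Log2 fold changes (points) with their SE (bars) of the 10 genes between the 3 glial classes, from the edgeR fit over 9 classes and 3 libraries, where filled points have an adjusted p under 0.05. Sox2, Sox5 and Sox6 lie between 1.63 and 3.35 against MSC-like nuclei, Egr2 lies at -7.06 for SGC-like against MSC-like nuclei, and Sox10 stays within 0.19 of 0 in all 3 contrasts.

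The pattern of each member over the 27 sums (9 classes in 3 libraries) was compared with that of 13715 genes, by Pearson's r of log2(CPM + 1). These sums share libraries and depth, so r is a description only. Yap1 and Wwtr1 were each other's nearest gene (r = 0.94). Pou3f1 was closest to Gldn (0.89), which encodes a protein of the node of Ranvier, and to Egr2 (0.88), and Egr2 was closest to Sema4c (0.90). Sox10 was closest to Igsf11 (0.98), then to Erbb3 (0.97), the neuregulin receptor and one of the glial markers, and Art3 (0.97). Sox2 ran closest to Cyp2j9 (0.93), Sox5 to Sorcs2 (0.90), Sox6 to Gpsm2 (0.89), Zeb2 to Stard3 (0.94) and Tead1 to Sh3d19 (0.96). Among member pairs, Sox10 and Sox2 (0.86) and Yap1 and Tead1 (0.85) came next, and Sox5 and Egr2 were lowest (-0.16).

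Sox2 lies within Sox2ot on the same strand (chromosome 3, 34650405 to 34652461), and Sox2ot was at a mean of 1510 CPM in SGC-like, 858 in NMSC-like and 590 in MSC-like nuclei, so Sox2 counts could hold reads of it. The genes overlapping Sox5, Sox6, Zeb2 and Yap1 that the files list were at a mean of 8.52 CPM or less in the 3 glial classes. Wwtr1 and Egr2 had no overlapping gene in the files. The other members lie at GRCm38 positions 143828425 to 144781977 of chromosome 6 (Sox5, minus strand), 115470872 to 116038796 of chromosome 7 (Sox6, minus strand), 67535475 to 67542188 of chromosome 10 (Egr2, plus strand), 44983632 to 45117395 of chromosome 2 (Zeb2, minus strand), 7931999 to 8004596 of chromosome 9 (Yap1, minus strand) and 57455649 to 57575910 of chromosome 3 (Wwtr1, minus strand).

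Between ages, SGC-like nuclei differed in 1 of the 9 members tested, where 9.01% of 14749 genes passed. Sox10 was lower in the aged libraries, at 353 CPM in the adult and 221 and 251 CPM in the aged libraries (log2 -0.71 ± 0.17, a 1.63-fold difference, adjusted p = 0.000944, edgeR with 1 residual degree of freedom, in which the lone adult library is assumed to vary like the aged ones). The call was kept under 8 of 9 alternatives and lost with DESeq2 (adjusted p = 0.0607). The value was -0.68 after thinning and -1.08 with clustering on variable genes. Sox2, Sox5, Sox6, Zeb2, Yap1, Wwtr1 and Tead1 differed by no more than 0.21 on the log2 scale in SGC-like nuclei and did not pass. Pou3f1 rested on 25, 18 and 15 UMIs (1.34 ± 0.61, adjusted p = 0.176), and Egr2 had too few UMIs to be tested. Among overlapping RNAs, Gm2164 at Pou3f1 was higher in the aged SGC-like sums (1.21 ± 0.29, adjusted p = 0.000999, edgeR). Sox2ot at Sox2 was lower (-0.51 ± 0.16, adjusted p = 0.0245), and 2310014F06Rik at Tead1 (0.17) and Zeb2os at Zeb2 (-0.31) did not pass. The part of these RNAs in the members' values was not tested.

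Some regulators of the Schwann lineage differed with age in SGC-like nuclei too. Of 18 tested, 4 were lower and 1 higher (median -0.16 beside 0.01), where 9.01% of all genes passed. Hes1 was at 105, 31.4 and 38.6 CPM (-1.75 ± 0.20, adjusted p = 4.79e-16), Egr3 at 44.9, 16.8 and 16.6 CPM (-1.56 ± 0.24), Id4 at 168, 101 and 87.2 CPM (-0.96 ± 0.18) and Egr1 at 15.6, 5.24 and 4.97 CPM (-1.73 ± 0.35). Foxd3, a neural crest factor, was the higher one (5.89, 14.1 and 16 CPM, 1.21 ± 0.35, adjusted p = 0.0104). None of 17 Hippo genes (median 0.14) and none of 4 SOX relatives (0.38) passed, and among 3 targets tested Ndrg1 was lower (-0.52 ± 0.17, adjusted p = 0.0273; list median 0.02).

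NMSC-like nuclei differed in 2 of 9 members tested, where 6.43% of 8843 genes passed. Pou3f1 rose from 9.58 CPM in the adult library to 86 and 64.5 CPM in the aged ones (2.85 ± 0.57, adjusted p = 4.39e-05), but the adult value was 4 UMIs in 149 nuclei, and the call was lost when nuclei were thinned to 1000 UMIs each. Its size was 1.53 with clustering on variable genes and 7.86 with a minimum of 2000 genes per nucleus. Tead1 rose from 429 CPM to 825 and 841 CPM (0.83 ± 0.19, adjusted p = 0.000416), a call lost with DESeq2 (adjusted p = 0.097) and a size of 1.46 under that minimum. The overlapping opposite-strand RNA 2310014F06Rik was higher in the aged NMSC-like sums too, at 55.1, 151 and 154 CPM (1.34 ± 0.35, adjusted p = 0.00398), and its part in the Tead1 difference was not tested. Sox10 was at 424, 315 and 320 CPM, and this difference did not pass (-0.54 ± 0.21, adjusted p = 0.101). Nor did Sox2 (0.69 ± 0.41), Yap1 (-0.55 ± 0.33), Sox6 (0.25), Zeb2 (-0.15), Wwtr1 (-0.05) or Sox5 (-0.03), and Egr2 had too few UMIs to be tested. Among 16 Schwann lineage regulators Zeb1 was higher (1.00 ± 0.20) and Hey2 (-1.77 ± 0.37), Id4 (-1.65 ± 0.41) and Hes1 (-1.05 ± 0.31) were lower, with a median of -0.04 beside 0.01. None of 13 Hippo genes, 2 SOX relatives or 3 targets passed (medians 0.31, 1.05 and -0.25).

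MSC-like nuclei differed in 5 of 10 members, 4 higher and 1 lower in the aged libraries, where 11.3% of 12683 genes passed. Egr2 rose from 70.3 CPM to 160 and 109 CPM (0.91 ± 0.23, adjusted p = 0.00754), and Pou3f1 from 60.2 CPM to 115 and 92.1 CPM (0.73 ± 0.23, adjusted p = 0.0378). Without aged library 1 the Egr2 difference was 0.57. Tead1 rose from 430 CPM to 725 and 800 CPM (0.74 ± 0.15, adjusted p = 0.000748), a call kept under all 8 alternatives. Here 2310014F06Rik was at 457, 645 and 629 CPM (0.40 ± 0.14, adjusted p = 0.076), and Gm2164, which overlaps Pou3f1, rose from 11.4 CPM to 27.8 and 48.9 CPM (1.54 ± 0.42, adjusted p = 0.0146). The part of these overlapping RNAs in the Tead1 and Pou3f1 differences was not tested. Sox6 rose from 87 CPM to 152 and 131 CPM (0.64 ± 0.21, adjusted p = 0.0419). Sox5 fell 2-fold, from 53.5 CPM to 32.7 and 20.1 CPM (SE 0.30 on the log2 scale, adjusted p = 0.0277). Sox10 (-0.12 ± 0.16, adjusted p = 0.705), Zeb2 (0.24), Wwtr1 (0.28), Sox2 (0.79) and Yap1 (0.62 ± 0.23, adjusted p = 0.0903) did not pass. When free RNA was subtracted, taken at its upper share of 21.9% of adult and 10.3% and 8.36% of aged MSC-like UMIs, Egr2 (0.64), Pou3f1 (0.46), Sox5 (-1.08) and Sox6 (0.65) kept their direction and no longer passed. Pou3f1 and Sox5 were also lost after thinning, Sox6 with a minimum of 2000 genes, and Sox5 with clustering on variable genes, where it was -0.10. DESeq2 called Tead1 alone. Neuron and MSC markers in MSC-like nuclei were lower in the aged libraries, as given above, and their part in these differences was not tested.

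In MSC-like nuclei, 3 of 16 Schwann lineage regulators were higher in the aged libraries, Zeb1 (0.73 ± 0.18), Id2 (1.20 ± 0.40) and Nab2 (1.04 ± 0.35), the last a co-repressor of EGR proteins at 17.4, 37.6 and 38.8 CPM. The list's median was 0.24 beside 0.00, and its count was not far from the 11.3% of all genes that passed. None of the 4 targets (median 0.07), none of 17 Hippo genes (0.29) and none of 4 SOX relatives (0.07) passed.

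**Figure D3:**
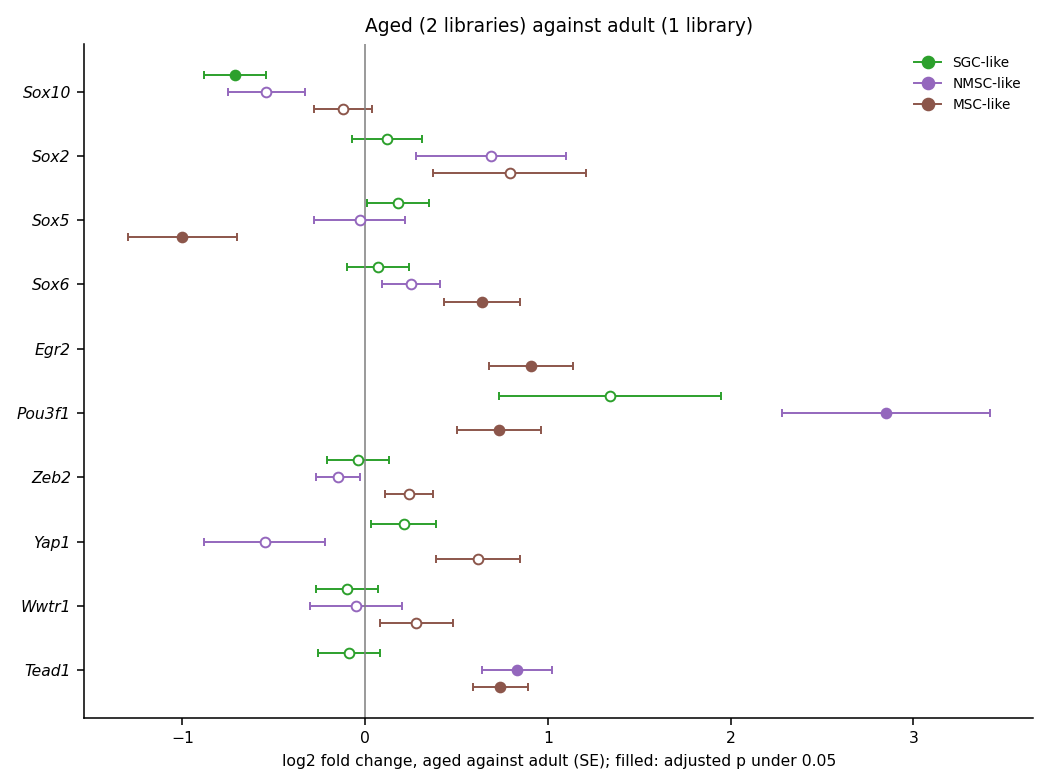
Log2 fold changes, aged (2 libraries) against adult (1 library), of the 10 genes in each glial class, with the SE of the edgeR fit as bars and filled points for an adjusted p under 0.05. Sox10 lies at -0.71 in SGC-like nuclei, Tead1 at 0.83 and 0.74 in NMSC-like and MSC-like nuclei, and Egr2 was tested in MSC-like nuclei only (0.91).

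Age differences were fitted outside glia as well. Neuron-like nuclei had 1 of 10 called, where 9.15% of 21670 genes passed: Sox10 at 8.04, 5.99 and 3.68 CPM (-0.85 ± 0.26, adjusted p = 0.0202). Sox10 in free RNA was likewise lower in the aged libraries (59.4, 34.3 and 24.3 CPM). When free RNA was subtracted, the neuron-like difference was -0.56 and no longer passed (adjusted p = 0.29), and the call was also lost after thinning, with DESeq2, with clustering on variable genes and with scaling to total UMIs. Wwtr1 (-0.72 ± 0.27, adjusted p = 0.068), Egr2 (0.62), Sox6 (-0.44), Sox2 (-0.39), Sox5 (-0.33), Tead1 (0.22), Yap1 (0.20), Pou3f1 (0.17) and Zeb2 (-0.13) did not pass in neuron-like nuclei. The Schwann lineage list had 3 of 20 lower there, Id4 (-1.01), Hes1 (-0.95) and Notch1 (-0.91), with a median of -0.26 beside 0.02, and the other lists had 0 called. Fibroblast-like nuclei had 0 of 7 members called by edgeR, where 0.449% of 13373 genes passed. At an unadjusted p under 0.05, which 13.4% of genes met, there were 2, Sox5 (218, 319 and 436 CPM, 0.72 ± 0.24, adjusted p = 0.252 by edgeR) and Sox6 (0.60 ± 0.20, adjusted p = 0.257), and DESeq2 called 0. Sox5 passed with no filter on low counts (0.67), clustering on variable genes (0.62), free RNA subtracted (0.58), scaling to total UMIs (0.78) and a minimum of 2000 genes (1.42), and under that minimum Sox6 (higher) and Sox10 (lower) passed too. Calls over all genes rose under these settings as well, to 1007 of 23565, 939 of 13424, 1009 of 12233, 1000 of 13373 and 1424 of 12359. The reported fit had 60 of 13373 and DESeq2 119 of 10521. As fitted here, Sox10 (-0.98 ± 0.48), Zeb2 (0.37), Tead1 (0.37), Yap1 (0.27) and Wwtr1 (0.05) did not pass, and Sox2, Egr2 and Pou3f1 had too few UMIs to be tested. No gene of the 4 lists passed in fibroblast-like nuclei.

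Whether age differences themselves differed between glial classes was tested as an interaction over the 3 glial classes, with 2 residual degrees of freedom. Between SGC-like and MSC-like nuclei 2 of 10 members passed, where 3.63% of 14203 genes did. The age difference of Tead1 was 0.87 lower on the log2 scale in SGC-like than in MSC-like nuclei (-0.87 ± 0.19, adjusted p = 0.00101), Tead1 in SGC-like nuclei being at 356, 357 and 373 CPM. That of Sox5 was higher in SGC-like nuclei (1.09 ± 0.30, adjusted p = 0.0184), and 1.68 without aged library 1. With clustering on variable genes it was -0.27, and it was not called there, after thinning, with DESeq2, with free RNA subtracted or with nuclei rich in neuron markers included. Sox10 did not pass (-0.63 ± 0.21, adjusted p = 0.0643), nor did Egr2 (-2.15 ± 0.99, adjusted p = 0.312), so that the fall of Sox10 in SGC-like nuclei was not shown to differ from its change in MSC-like nuclei. Sox2 (-0.73), Sox6 (-0.62), Pou3f1 (0.52), Yap1 (-0.46), Wwtr1 (-0.41) and Zeb2 (-0.32) did not pass either. Between SGC-like and NMSC-like nuclei 1 of 10 passed, where 1.48% did: Tead1 again (-0.93 ± 0.21, adjusted p = 0.00408). Neither Tead1 value was called by DESeq2 or after thinning (-0.57 and -1.02). The same differences of 2310014F06Rik, which was at 65.2, 82.3 and 77.3 CPM in SGC-like nuclei, were -0.27 (adjusted p = 0.687) and -1.18 (adjusted p = 0.0695). The other 9 members did not pass between SGC-like and NMSC-like nuclei, namely Egr2 (-2.65 ± 1.37), Pou3f1 (-1.61 ± 0.82), Yap1 (0.74), Sox2 (-0.59), Sox5 (0.20), Sox10 (-0.18), Sox6 (-0.18), Zeb2 (0.10) and Wwtr1 (-0.07). Egr2 had too few UMIs for an age test within SGC-like (9, 1 and 1) or NMSC-like nuclei (2, 11 and 7). It entered both interactions because low counts were filtered over the 3 glial classes together, so its values there decide nothing. These contrasts share the same libraries and the same SGC-like values. Of the lists, Id2 (-1.54 ± 0.47) passed between SGC-like and MSC-like nuclei, and no listed gene passed between SGC-like and NMSC-like nuclei.

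The share of nuclei with at least 1 UMI was compared after each nucleus was thinned to 1000 UMIs, since the aged nuclei were deeper. The 95% intervals are exact binomial ones and cover counting error only. Without thinning, Sox10 was seen in 61.9%, 71.3% and 72.1% of SGC-like nuclei, and after thinning in 29.5% (28 to 31.1), 23% (19.3 to 26.9) and 19.1% (14.4 to 24.5). The adult library was thus lowest without thinning and highest after it, as it was in CPM. Myeloid-like nuclei, which should lack Sox10, gave 1.94%, 0.476% and 1.19% after thinning.

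Egr2 was seen in 6.67% (4.63 to 9.24), 14.4% (11.2 to 18) and 12.2% (7.42 to 18.7) of thinned MSC-like nuclei, from 16.2%, 34.5% and 32.7% without thinning. In thinned SGC-like nuclei it was seen in 1 of 3471 adult nuclei and in 0 of 501 and 0 of 251 aged ones, with exact upper limits of 0.734% and 1.46% for the latter, which limit nuclei with a UMI at this depth. Thinned myeloid-like nuclei had 0 with Egr2 in every library. Pou3f1 was seen in 1.34%, 7.34% and 6.82% of thinned NMSC-like and 6.87%, 11.2% and 10.9% of thinned MSC-like nuclei, against 0.259%, 0.599% and 0.398% of SGC-like nuclei. Myeloid-like nuclei gave 0%, 0.952% and 0.595% for Pou3f1, so the aged SGC-like shares were not above background. The adult background rested on 103 myeloid-like nuclei, too few to place the adult SGC-like share above it. Tead1 was seen in 28.8%, 30.7% and 30.7% of thinned SGC-like nuclei, with overlapping intervals, and in 33.6% (26 to 41.7), 52.5% (44.9 to 60.1) and 50% (39.1 to 60.9) of NMSC-like nuclei. In MSC-like nuclei the shares were 35.2%, 46.3% and 52.4%. Tead1 in myeloid-like nuclei was at 2.91%, 1.9% and 1.79%. Sox6 was seen in 47.2% to 53.3% of thinned SGC-like, 54.4% to 62.5% of NMSC-like and 7.47% (5.32 to 10.2), 13.7% (10.6 to 17.3) and 15% (9.62 to 21.8) of MSC-like nuclei. Myeloid-like nuclei gave 9.71% (4.75 to 17.1), 1.9% (0.521 to 4.8) and 2.98% (0.973 to 6.81) for Sox6, so the adult MSC-like share was not above this background and the aged ones were.

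**Figure D4:**
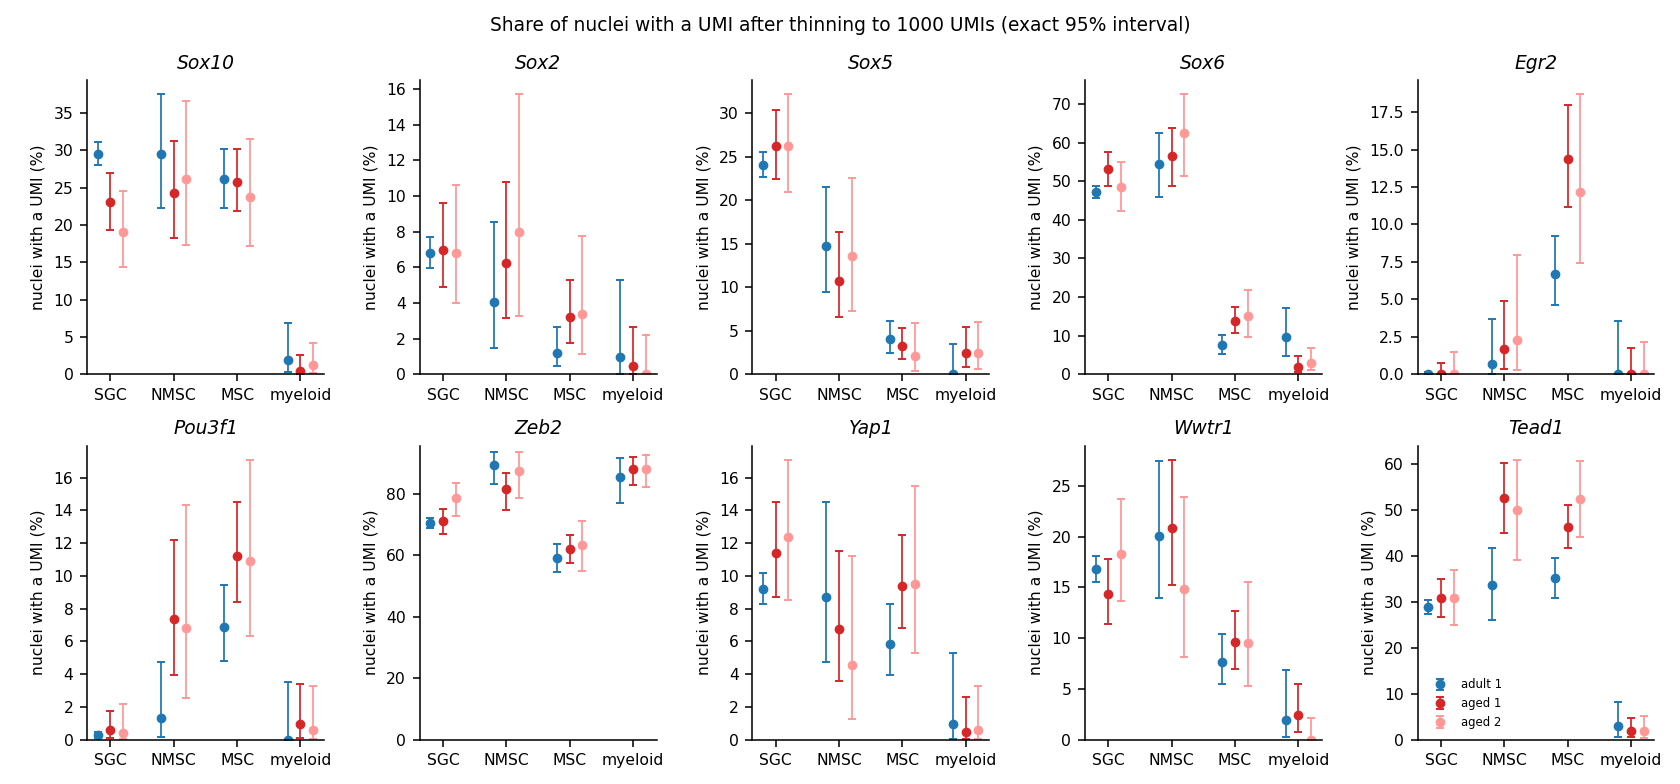
Percent of nuclei with at least 1 UMI of each gene after thinning to 1000 UMIs per nucleus, by class and library, with exact 95% binomial intervals as bars. Tead1 stands at 28.8% to 30.7% in SGC-like nuclei of the 3 libraries and goes from 33.6% in the adult to 52.5% and 50% in the aged NMSC-like nuclei. Zeb2 was seen in 85.4% to 88.1% of myeloid-like nuclei, which overlaps the 81.4% to 89.3% of NMSC-like nuclei and lies above the SGC-like and MSC-like shares.

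A thinned glial nucleus held UMIs of few of the 10 genes at once. The median was 2 members in SGC-like and MSC-like nuclei of every library, and 2, 3 and 3 in NMSC-like nuclei. No member was seen in 5.21%, 7.19% and 2.39% of thinned SGC-like, 2.01%, 2.26% and 3.41% of NMSC-like and 16.6%, 9.82% and 6.12% of MSC-like nuclei. Without thinning the medians were 4, 6 and 6 in SGC-like, 4, 5 and 5 in NMSC-like and 3, 4 and 4 in MSC-like nuclei.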

How the data were processed

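Nuclei of lumbar dorsal root ganglia from adult (3 months, 1 library) and aged mice (21 months, 2 libraries) had been sequenced by PIP-seq with a 3′ kit. The authors deposited 1 matrix per library of whole-number UMI counts, made with Pipseeker against mm10. The annotation and whether counting used strand are not given in the sources used here. No other normalization was applied to the deposited counts. Total counts ran from 69045987 to 167664164 UMIs per library, and kept nuclei held 53.8% to 58.4% of them.

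Barcodes with more than 1000 genes were kept. Leiden clustering (scanpy 1.11.5, leidenalg 0.10.2, 30 principal components, 20 in a second step on the glia, 15 neighbours, resolution 1.0) used 118 marker genes, none of them a member. A class was named from at least 3 markers that were 2-fold or more above the other clusters (log2 of 1) and in 10% or more of nuclei. In the second step a glial cluster took the class with the highest mean log2 level of its markers against the other glial clusters, and only the Schwann names again needed 3 markers. The clusters named SGC-like had 0 to 4 SGC markers past these limits against all other glial clusters and 3 to 7 against the Schwann-like clusters alone. The details of this naming rule were settled after the clusters had been seen. No doublet caller was run. Clusters with markers of several classes (235, 224 and 85 nuclei), glial clusters rich in neuron markers (284, 203 and 70), glial clusters between the classes (180, 125 and 59) and unnamed clusters (998, 390 and 165) were left out.

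UMI counts were summed per class and library, and sums of 20 or more nuclei in every library were tested with edgeR 4.0.16 (R 4.3.3; TMM, filterByExpr, quasi-likelihood F test, two-sided, Benjamini-Hochberg over all genes tested, threshold 0.05). The class fit held 27 sums with library as a block. The age fits held 3 sums, or the glial ones for the interaction. The SE is the log2 fold change divided by the root of F. Nuclei were not used as replicates. Although the study calls the libraries biological replicates, the animals in each are not given, so p-values may not cover the spread between animals. In the class fit they rest on the spread of class sums left after library was blocked, shared over the 9 classes. The residual degree of freedom of an age fit came from the aged pair alone. The age and interaction fits left few residual degrees of freedom. Their p-values therefore rest largely on a spread that edgeR pools over genes, not on each gene's own spread. The fits were tested on simulated counts. Shares carry exact Clopper-Pearson 95% intervals.

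Gene positions are from GENCODE M21 (GRCm38), matched by identifier for 32149 of 32227 genes. All 10 members were named in every comparison. Other genes were named from 4 lists (at most 6 per list and comparison, by adjusted p, with 1 listed gene not reported here), as the 3 genes most like a member, or as overlapping genes. Genes named beyond these were chosen after their values had been seen. The members and lists were chosen with earlier results of these data known. Alternatives were DESeq2 1.42.0, RLE size factors, no filter on low counts, clustering on 3000 variable genes, thinning to 1000 UMIs, a minimum of 2000 genes, subtraction of free RNA (barcodes of 10 to 100 UMIs), the 3 glial classes alone and leaving out each library.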

Additional observations from a re-analysis of the deposited data

Results flagged for a closer look

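Age differences that themselves differed between glial classes were found for 2 members. For Tead1, the aged-minus-adult difference in SGC-like nuclei minus that in MSC-like nuclei was -0.87 on the log2 scale (adjusted p = 0.00101, edgeR interaction term). Against NMSC-like nuclei the same measure of Tead1 was -0.93 (adjusted p = 0.00408). SGC-like nuclei held 356, 357 and 373 CPM in the adult, aged 1 and aged 2 libraries, while NMSC-like nuclei went from 429 to 825 and 841 CPM and MSC-like nuclei from 430 to 725 and 800 CPM. The opposite-strand RNA 2310014F06Rik, which overlaps the 5′ end of Tead1, was at 65.2, 82.3 and 77.3 CPM in SGC-like, 55.1, 151 and 154 CPM in NMSC-like and 457, 645 and 629 CPM in MSC-like nuclei, and its part in the Tead1 values was not tested. Both Tead1 values kept their sign under all 9 alternatives and were not called by DESeq2 or after thinning to 1000 UMIs. For Sox5 the difference between SGC-like and MSC-like nuclei was 1.09 (adjusted p = 0.0184), from 289, 342 and 370 CPM in SGC-like and 53.5, 32.7 and 20.1 CPM in MSC-like nuclei, and it was called under 4 of 9 alternatives. Without aged library 1 it was 1.68, and with clustering on variable genes it was -0.27.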

How the results depend on the processing

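Of 38 differences of members that were called, 19 were called under every alternative tested. Over 1176 values of members under alternatives, 975 kept their direction and their side of the threshold, and 69 changed sign without a call before or after. Age and interaction values with an aged library left out have no p-value. They are counted here with the unchanged ones when they stayed within the SE of the reported fit. A further 13 of them moved by more than that SE (3 with a change of sign). Among the tested values, 55 passed that had not before and 63 no longer passed. The 1 called value that turned was the age difference of Sox5 between SGC-like and MSC-like nuclei, which was -0.27 with clustering on variable genes. The cause was not tested. The number of members called with each library left out ranged from 5 to 8 for SGC-like against MSC-like, from 1 to 5 for SGC-like against NMSC-like, from 5 to 5 for NMSC-like against MSC-like and from 8 to 9 for glia against the other classes. Over all genes the same fits called 2454 to 3695, 488 to 1846, 1093 to 2232 and 4421 to 6052, of 13570 to 14894 tested. Leaving out an aged library in an age difference left no residual degree of freedom and gave values without a test.

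For age differences, DESeq2 called 0 members in SGC-like nuclei (1 by edgeR), 0 in NMSC-like (2), 1 in MSC-like (5), 0 in neuron-like (1) and 0 in both interactions (2 against MSC-like, 1 against NMSC-like). An adjusted p that DESeq2 did not give was left out of these counts. Over all genes DESeq2 called 203 of 11889, 68 of 2671, 205 of 8748 and 521 of 19149 in these classes. In the interactions it called 86 of 5116 and 29 of 4015. The reported fits called 1329 of 14749, 569 of 8843, 1434 of 12683, 1983 of 21670, and 515 and 210 of 14203. Clustering on variable genes gave 3 in SGC-like, 0 in neuron-like, 1 in fibroblast-like nuclei (0 in the reported fit) and 4 and 3 in the interactions with MSC-like and NMSC-like nuclei. Over all genes this clustering called 3197 of 16431, 1756 of 21299 and 939 of 13424 (60 of 13373 in the reported fibroblast-like fit). In the interactions it called 1457 and 995 of 14085, so calls rose over all genes too. Thinning gave 1 in NMSC-like, 3 in MSC-like, 0 in neuron-like nuclei and 0 in both interactions. Over all genes it called 154 of 4722, 444 of 8746, 246 of 13343, and 63 and 28 of 8191, in the same order. Subtraction of free RNA gave 1 in MSC-like, 0 in neuron-like, 1 in fibroblast-like nuclei and 1 in the interaction with MSC-like nuclei. Over all genes it called 600 of 11493, 1573 of 21484, 1009 of 12233 and 344 of 13347, in the same order. In fibroblast-like nuclei no filter on low counts gave 1 (1007 of 23565 over all genes) and a minimum of 2000 genes gave 3 (1424 of 12359). Under this minimum the classes of fewer than 20 nuclei left the class fit. Of the 2 alternatives chosen after seeing the data, scaling to total UMIs gave 0 in neuron-like and 1 in fibroblast-like nuclei (1523 of 21670 and 1000 of 13373 over all genes). Counting the glial nuclei with neuron markers as SGC-like gave 3 in SGC-like nuclei and 6 in the interaction with MSC-like nuclei. Over all genes this counting called 3574 of 16765 and 1862 of 14302, so calls rose over all genes too.

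Over all genes, calls of the age difference in SGC-like nuclei ranged from 203 (DESeq2) to 3574 (nuclei with neuron markers included) beside 1329, with 37.2% of calls higher as reported and 60.2% under scaling to total UMIs, which moved the all-gene median from 0.01 to 0.13. In NMSC-like nuclei they ranged from 68 to 857 beside 569 (46.7% higher as reported, 62.3% under that scaling), in MSC-like from 205 to 1795 beside 1434 (35.8%, 49%), in neuron-like from 246 to 2015 beside 1983 (19.5%, 31.3%) and in fibroblast-like from 39 to 1424 beside 60 (35%, 48.6%). The interactions gave 63 to 1862 beside 515 (63.5%, 74.9%) and 28 to 995 beside 210. The SGC-like against MSC-like and NMSC-like contrasts gave 2436 to 4587 beside 4133 (54.7%, 41.6%) and 488 to 2263 beside 1982 (61.2%, 36.3%), NMSC-like against MSC-like gave 1093 to 2627 beside 2293, and glia against the other classes 3704 to 7327 beside 6798 (46.6%, 35.4%). No paired analysis was possible, since replicate numbers were given within each age and link no adult library to an aged one. Within the glial classes, UMIs were fewest for Egr2 in SGC-like nuclei (9, 1 and 1) and for Egr2 and Pou3f1 in adult NMSC-like nuclei (2 and 4).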
